A study of Homo sapiens with 2 samples.

Results

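Very long genes were taken as the protein-coding features of the count tables whose start and end lay 500000 bases or more apart and that overlapped no tRNA feature. There were 304 of them, out of 741078 listed features and 20285 protein-coding genes on the nuclear chromosomes. Of 315 protein-coding genes at or above that span, 10 were left out because a tRNA feature lay in them, and AKAP6 was left out by name. The data came from CLIP-seq of hTrmt13 (TRMT13), the human relative of a yeast tRNA 2'-O-methyltransferase, in MDA-MB-231, an established human breast carcinoma line. The assay isolates a protein with its crosslinked RNA and sequences that RNA. The series states its purpose as finding the tRNAs that the enzyme binds. There was 1 group of 2 replicates, with no treatment named in the labels, and no input or antibody control was analysed here, so each value describes RNA recovered and not an enrichment.

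In CLIP, an antibody against the protein pulls down RNA that was fixed to it by crosslinking, and RNA that is merely abundant or sticky can come down too. Very long human genes consist almost wholly of introns, which are transcribed and then spliced out, so reads across such a span can come from unspliced transcripts, from exons or from small genes that sit inside an intron. Many of these genes are known for roles in neurons (adhesion molecules, ion channels, receptors), while others serve membrane traffic, the cytoskeleton or transcription in most cells.

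Both read mates, called R1 and R2, had been counted separately. Replicate 1 held 27907799 R1 and 11246823 R2 counts, and replicate 2 held 20590398 R1 and 8793089 R2 counts. Values below are from R1, replicate 1 first, unless stated. Nothing in the labels tells if the replicates were separate cultures, and the spread between them may be technical. PCR reads without molecular identifiers are not independent molecules, and the 95% intervals given cover counting error only. Whether counting used strand is not given in the sources used here, so reads of a gene and of another gene overlapping it cannot be told apart. Several markers of MDA-MB-231 were at or near 0 counts. CD44, a surface glycoprotein abundant in this line, had 12 and 7, ANXA1, an annexin, had 0 and 3, and TGFBI, a matrix protein, had 0 and 1. Of the 10 mesenchymal markers, VIM, the intermediate filament vimentin, was the highest with 382 and 722 counts, and the 10 summed to 598 and 1037. The 8 luminal epithelial markers summed to 117 and 208 counts with KRT19 at 0, the 7 neuronal markers to 243 and 390 (SYT1, itself a very long gene, had 147 and 216 of these), and the 4 blood markers to 23 and 30 with CD3E at 0. Per kilobase, the medians of the 4 marker groups were 0.367, 0.374, 0.250 and 0.645 in replicate 1, with overlapping ranges. These libraries therefore did not separate the labelled line from other cell types by its markers, and the reason was not tested.

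The sequences printed here are those of small RNA copies inside very long genes. Those in RELN, PHACTR1, NAALADL2 and ELMO1 are shown because they held over 30% of the R1 count of the gene around them in both replicates, and the one in DIAPH2 because it had R1 counts and no R2 counts. RN7SL5P in PTPRD, a copy of 7SL RNA, also held over 30% in both but is not printed. Its sequence was 321 bases long, against 288 by its listed positions. 7SK RNA holds back transcription elongation, Y RNAs bind the Ro protein, and U1 and U4 are RNAs of the spliceosome. Positions are from the tables (hg19), and the sequences are the transcripts of the same gene IDs in GENCODE release 29, given 5′ to 3′. Of 10 copies with at least 20 R1 counts in both replicates, 9 had a sequence, and 8 of these had the same length in both sources. Of RN7SKP86, which is longer, the first 280 bases are given. Capitals mark bases that differ from, or have no partner in, the parent RNA in a global alignment.
RN7SKP86 (in RELN, chr7:103124655-103124986, minus strand, parent RN7SK): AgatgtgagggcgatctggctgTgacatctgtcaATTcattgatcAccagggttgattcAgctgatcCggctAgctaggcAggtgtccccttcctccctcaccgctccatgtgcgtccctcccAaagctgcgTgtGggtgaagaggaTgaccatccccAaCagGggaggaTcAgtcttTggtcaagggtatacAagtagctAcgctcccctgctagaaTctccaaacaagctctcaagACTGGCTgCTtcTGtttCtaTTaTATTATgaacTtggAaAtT
RNU1-11P (in PHACTR1, chr6:13214288-13214451, plus strand, parent RNU1-1): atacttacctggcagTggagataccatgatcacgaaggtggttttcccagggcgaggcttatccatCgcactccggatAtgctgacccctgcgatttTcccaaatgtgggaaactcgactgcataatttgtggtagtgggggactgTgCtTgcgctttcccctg
RNU4-91P (in NAALADL2, chr3:175327267-175327401, plus strand, parent RNU4-1): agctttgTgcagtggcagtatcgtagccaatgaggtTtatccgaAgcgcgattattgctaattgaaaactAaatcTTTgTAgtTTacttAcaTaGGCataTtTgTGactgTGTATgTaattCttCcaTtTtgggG
Y_RNA (in ELMO1, chr7:37474718-37474819, plus strand, parent RNY3): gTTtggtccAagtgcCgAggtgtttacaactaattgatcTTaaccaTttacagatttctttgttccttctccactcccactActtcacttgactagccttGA
Y_RNA (in DIAPH2, chrX:95956506-95956618, minus strand, parent RNY1): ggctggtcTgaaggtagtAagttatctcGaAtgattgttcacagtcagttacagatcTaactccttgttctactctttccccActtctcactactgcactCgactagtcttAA
RNU1-11P was 95.7% identical to U1, the Y RNA copies in DIAPH2 and ELMO1 were 92.0% and 89.2% identical to Y1 and Y3, RN7SKP86 was 75.1% identical to 7SK and RNU4-91P was 69.8% identical to U4. RN7SL5P was 85.5% identical to 7SL, with 1 differing base in its first 200. A copy can share reads with its parent gene where their sequences match, which was not examined here. How reads with several matches were placed is not given in the sources used here, so counts at these copies are uncertain.

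Very long genes had few counts for their span, yet each of them had some. Their summed R1 count was 46801 in replicate 1 and 64809 in replicate 2, which was 0.168% (exact Clopper-Pearson interval 0.166 to 0.169) and 0.315% (0.312 to 0.317) of the library totals, or 0.241% ± 0.104 (SD, n = 2). Of the counts of protein-coding genes without a tRNA feature they took 3.11% and 2.96%. The share of the total thus differed between the replicates, while the share within protein-coding genes was nearly equal. No very long gene was at 0 in either R1 table, against 18.7% and 14.7% of the 19890 other protein-coding genes without a tRNA feature. Few genes of 250 to 500 kb were at 0 either (0.138% and 0%), and the genes at 0 were mostly short ones, with 42.6% and 37.2% of genes under 10 kb at 0. The median count was 62.5 in replicate 1 and 100.5 in replicate 2, and 50 and 12 of the 304 genes had fewer than 10 counts. In a bulk library, fewer cells of a type and less RNA per cell cannot be told apart, so a low count says nothing about how many cells held the RNA.

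Counts per kilobase (the count divided by the span, introns included, in kilobases) had a median of 0.0738 and 0.136 over very long genes, against 0.824 and 1.26 over the other protein-coding genes. The ratio of the medians was 0.0896 in replicate 1 and 0.108 in replicate 2. In the R2 tables the medians were 0.0674 and 0.108 for very long genes, against 0.721 and 1.07 for the others. Among very long genes the interquartile range ran between 0.0199 and 0.316 in replicate 1 and between 0.0369 and 0.450 in replicate 2, a 15.9-fold and a 12.2-fold width, and the extremes were 0.00196 and 1.40, and 0.00584 and 1.96. Density was lower in each longer class of span above 10 to 50 kb. In genes of 1000 kb or more (n = 66) the median was 0.0398 and 0.0752 counts per kilobase, in genes of 750 to 1000 kb (n = 70) it was 0.0738 and 0.126, and in genes of 500 to 750 kb (n = 168) it was 0.116 and 0.170. Below the span minimum it was 0.338 and 0.466 at 250 to 500 kb (n = 725) and, highest of the classes, at 10 to 50 kb (n = 8095), with 1.19 and 1.92. The raw count hardly followed the span within the very long genes: over these 304 genes, which share libraries and depth, Spearman's rho of count and span was 0.0677 and 0.0915, and rho of count and summed exon length was 0.0837 and 0.100. By GENCODE 29 gene models, matched by gene ID for all 304, exons filled a median of 1.21% of the span, 10.03 kb per gene.

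**Figure D1:**
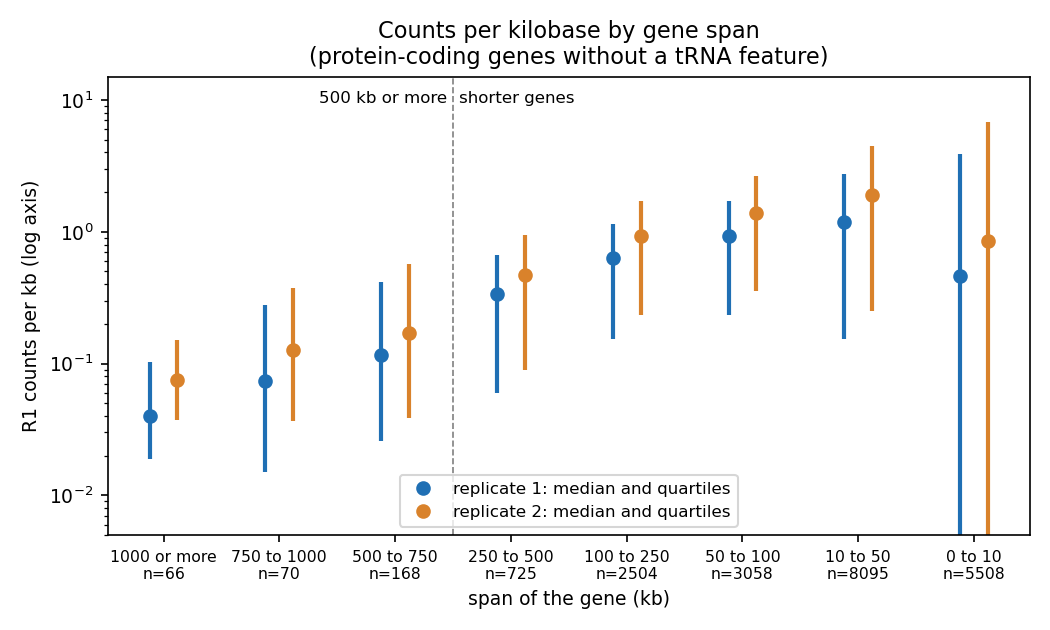
R1 counts per kilobase (log axis) of protein-coding genes without a tRNA feature by class of span in kilobases; points are medians and bars the interquartile range of genes for each replicate, and the lower quartile of the 0 to 10 kb class is 0, so its bar runs off the axis. The 3 classes at or above 500 kb had medians between 0.0398 and 0.116 in replicate 1 and lay below every shorter class in both replicates.

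The 5 genes just inside it, between 500054 and 503030 bases, had 0.0400 and 0.0580 counts per kilobase (AFF2), 0.0558 and 0.0738 (SPOCK3), 0.116 and 0.181 (KCNAB1), 0.0439 and 0.0917 (PPFIA2), and 0.596 and 1.05 (DNAH14, an axonemal dynein heavy chain). The 5 just outside it, between 496641 and 498404 bases, were DIAPH3 with 0.883 and 1.26, DST with 1.18 and 1.48, RPS6KA2 with 0.563 and 0.698, ITPR2 with 0.505 and 0.548, and CACNA2D1 with 0.360 and 0.583. DNAH14 apart, the genes just inside were lower than those just outside in both replicates.

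A very long gene was said to stand out when its R1 counts per kilobase were at least 4 times the median of all very long genes in both replicates, that is at least 0.295 in replicate 1 and 0.545 in replicate 2. This held for 59 of the 304 genes (19.4%). Over all 20194 protein-coding genes without a tRNA feature, 60.7% passed the same level, so what stood out among very long genes was an ordinary density for a protein-coding gene. By span, the level was passed by 7.58% of genes of 1000 kb or more, 17.1% of those of 750 to 1000 kb and 25% of those of 500 to 750 kb, and by 45.8% at 250 to 500 kb. The 59 genes held 58.7% and 55.8% of the counts of all very long genes. The level was passed in replicate 1 alone by 20 genes, of which RORA, a nuclear receptor, with 0.448 and 0.545 counts per kilobase, and TENM3, a teneurin, with 0.378 and 0.543, came closest. Among the lowest that stood out were EPHA6, an ephrin receptor, with 0.395 and 0.575, and FARS2, the mitochondrial phenylalanyl-tRNA synthetase, with 0.411 and 0.570.

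FAF1, which encodes a ubiquitin-binding Fas-associated factor, had the highest density. It had 735 and 1024 R1 counts and 652 and 875 R2 counts over 523235 bases (chr1:50902700-51425935), or 1.40 (exact Poisson interval 1.30 to 1.51) and 1.96 (1.84 to 2.08) counts per kilobase. NFIA, AGAP1 and GSE1 also reached 10 times the median in both replicates. NFIA, a nuclear factor I transcription factor (chr1:61330931-61928465), had 677 and 1008 R1 counts and 589 and 860 R2 counts, or 1.13 and 1.69 per kilobase of R1. AGAP1, a GTPase-activating protein for Arf proteins of endosomes (chr2:236402733-237040444), had 744 and 1030 R1 counts and 674 and 889 R2 counts, or 1.17 and 1.62 per kilobase. GSE1, a coiled-coil protein found with chromatin complexes (chr16:85203131-85709810), had 551 and 852 R1 counts and 488 and 705 R2 counts, or 1.09 and 1.68 per kilobase. GINS2, a replication gene that overlaps GSE1, had 42 and 108 R1 counts over its own whole span. FAF1, NFIA, AGAP1 and GSE1 spanned between 500 and 750 kb.

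EXOC4, a subunit of the exocyst that tethers vesicles to the plasma membrane (chr7:132937829-133751342), went the other way between replicates in raw counts, with 1026 and 939 R1 counts and 732 and 728 R2 counts, or 1.26 and 1.15 per kilobase. PTPRG, a receptor tyrosine phosphatase (chr3:61547243-62283288), had 695 and 891 counts (0.944 and 1.21), of which 132 and 193 lay at RPL10AP6, a ribosomal protein pseudogene. ADK, adenosine kinase, had 0.967 and 1.18 counts per kilobase, and TTC28, a tetratricopeptide repeat protein, had 1.01 and 1.14. TENM1, a teneurin adhesion protein on chromosome X, had 565 and 690 counts (0.961 and 1.17). STAG2, a cohesin gene that overlaps the span of TENM1, had 389 and 613 counts over its own whole span. How many of these lay inside TENM1 was not counted. TENM1 was the 1 standing-out gene whose overlapping protein-coding genes had whole counts of at least 50% of its own. Of the 59 genes, 16 overlapped another protein-coding gene. WDPCP, a ciliogenesis gene, had 343 and 573 counts, and MDH1, a malate dehydrogenase gene that overlaps it, had 122 and 184 over its whole span.

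The next genes by density served several roles. MECOM, a zinc finger transcription factor of blood stem cells, had 0.862 and 1.24 counts per kilobase, and LRBA, a vesicle traffic protein, had 0.885 and 1.17. DOCK1, an activator of the GTPase Rac, had 0.828 and 1.04, with 85 and 48 of its 544 and 685 counts at a Y RNA copy. AUTS2, a nuclear protein linked to neurodevelopment (chr7:69063282-70258481), had the highest mean count of all very long genes, 970 and 1173 in R1 and 862 and 964 in R2, or 0.812 and 0.981 per kilobase over a span above 1 Mb. ROBO1, a receptor for the guidance cue Slit (chr3:78646390-79816965), had 845 and 1217 R1 counts and 721 and 1021 R2 counts, or 0.722 and 1.04 per kilobase. MAGI1, a scaffold of cell junctions, had 0.747 and 1.01. In these 6 genes replicate 2 had the higher raw R1 count throughout, before any scaling of the libraries.

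**Figure D2:**
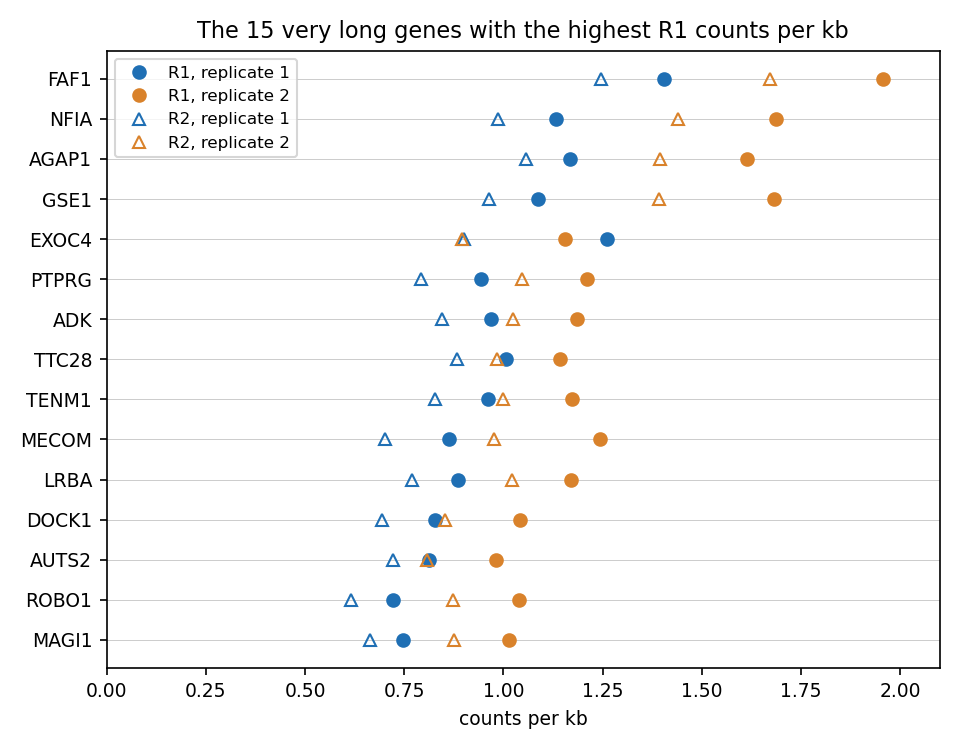
Counts per kilobase of the 15 very long genes with the highest R1 mean, 1 row per gene, with filled points for R1 and open triangles for R2 in each replicate (counts per kb, linear axis). FAF1 led with 1.40 and 1.96, the 15 genes lay far above the medians of all very long genes (0.0738 and 0.136), and EXOC4 alone among them had the higher raw R1 count in replicate 1.

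Further genes among the 59 covered many cell functions, and their densities lay close together. RAD51B, a DNA recombination protein, had 628 and 787 R1 counts and 558 and 666 R2 counts, or 0.690 and 0.864 R1 counts per kilobase. GPHN, the scaffold gephyrin, which also makes molybdenum cofactor, had 454 and 652 R1 counts and 399 and 572 R2 counts (0.673 and 0.967). UTRN, utrophin, a relative of dystrophin, had 338 and 458 R1 counts and 295 and 383 R2 counts (0.596 and 0.807). In these 3 genes between 0.251% and 1.27% of the R1 count lay in short features, and no other protein-coding gene overlapped the span. CDKAL1, a methylthiotransferase that modifies tRNA-Lys, had 396 and 495 R1 counts and 353 and 415 R2 counts (0.567 and 0.709), with none of the R1 counts in a short feature. GMDS, an enzyme of GDP-fucose synthesis, had 382 and 501 R1 counts (0.614 and 0.806), and CREB5, a transcription factor, had 356 and 568 (0.676 and 1.08). DENND1A, an exchange factor for Rab35, had 388 and 454 (0.705 and 0.825), and ERC1, a scaffold near the plasma membrane, had 387 and 459 (0.766 and 0.908). EXOC6B, another exocyst subunit, had 393 and 474 R1 counts (0.605 and 0.729), of which 45 and 40 lay at RNU2-39P, a copy of the U2 spliceosomal RNA, against 9 and 19 R2 counts there. SUPT3H, a subunit of the SAGA complex, had 287 and 383 R1 counts (0.505 and 0.674). RUNX2, which overlaps it, had 66 and 97 R1 counts over its own whole span.

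At the other end, the 5 lowest genes had counts in single or low double digits. SLC24A3, a sodium, calcium and potassium exchanger, had 1 and 6 R1 counts and 0 and 9 R2 counts, or 0.00196 and 0.0118 R1 counts per kilobase. KHDRBS2, an RNA-binding protein of the nervous system, had 2 and 5, CA10, a carbonic anhydrase-related protein, had 2 and 5, KCNJ6, a potassium channel, had 4 and 3, and OPCML, a GPI-anchored adhesion protein, had 6 and 11. At these counts the exact Poisson interval in replicate 2 ran from 0.00431 to 0.0256 for SLC24A3 and from 0.00268 to 0.0192 for KHDRBS2, so the order among the lowest genes was not resolved. The 5 longest genes were not the densest. RBFOX1, a neuronal splicing factor and the longest at 2473537 bases, had 43 and 94 R1 counts and 35 and 79 R2 counts, or 0.0174 and 0.0380 R1 counts per kilobase. CNTNAP2, an adhesion protein of axons, had 34 and 86 R1 counts (0.0148 and 0.0373). DLG2, a synaptic scaffold, had 122 and 201 (0.0561 and 0.0925). DMD, the dystrophin gene, had 111 and 176 (0.0495 and 0.0785). PTPRD, at 442 and 892, is described with the small RNA copies.

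The 9 gene lists, drawn up by role with earlier results of these data known, covered 201 of the 304 genes. The list of membrane traffic, cytoskeleton and cell housekeeping had the highest density, with a median of 0.396 and 0.545 counts per kilobase over its 40 very long genes, against 0.0738 and 0.136 over all 304. In it 20 of 40 genes stood out, against 59 of 304. AGAP1, EXOC4, TTC28 and LRBA, given above, led it, and PARD3, a cell polarity scaffold, had 508 and 687 counts (0.720 and 0.973). Not all of its genes were dense: MYO16, an unconventional myosin, had 5 and 7 counts (0.00817 and 0.0114). The lists also differed in span: the median was 717525 bases in this list, 974201 in synaptic and axonal adhesion, 1102922 in cadherins, 1353175 at fragile sites, 1557224.5 in the CUB and sushi list and between 624134 and 741255 in the other lists, against 718782 bases over all very long genes. Since density was lower at longer spans, the part of span in the list medians was not tested.

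Phosphatases, kinases and phosphodiesterases followed, with a median of 0.173 and 0.232 over 20 genes, 5 of which stood out. After PTPRG came PRKCA, a protein kinase C, with 398 and 437 counts (0.783 and 0.860), and PTPRK, a receptor phosphatase, with 312 and 468 (0.565 and 0.848). PRKG1, the cGMP-dependent protein kinase, had 785 and 802 (0.600 and 0.613), and the lowest was ALK, a receptor tyrosine kinase, with 2 and 13. Of 25 transcription factors, chromatin and RNA-binding proteins, 7 stood out and the median was 0.0949 and 0.187. FOXP2 and FOXP1, forkhead transcription factors, both stood out, with 0.596 and 0.948 for FOXP2 and 0.518 and 0.808 for FOXP1. Among 26 genes at common fragile sites, regions that break under replication stress, 5 stood out and the median was 0.0836 and 0.123. Besides AUTS2, these held LARGE, a glycosyltransferase, with 433 and 585 counts (0.569 and 0.769), and FHIT, a nucleoside hydrolase lost in many tumours, with 750 and 1038 (0.499 and 0.691). The values of the fragile-site list were near those of all 304 genes.

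The 5 remaining lists, among them the genes best known from neurons, had medians below that of all very long genes. Synaptic and axonal adhesion had a median of 0.0367 and 0.0634 over 40 genes, 6 of which stood out: TENM1, ROBO1, MAGI1, NLGN1, SDK1 and ADGRL2. NLGN1, a neuroligin, had 441 and 535 counts (0.495 and 0.601). Ion channels, transmitter receptors and vesicle release had a median of 0.0315 and 0.0720 over 30 genes, with 2 standing out. These were KCNQ5, a potassium channel, with 281 and 450 counts (0.487 and 0.780), and GRID1, a glutamate receptor subunit, with 413 and 547 (0.539 and 0.713). Cadherins, protocadherins and catenins had a median of 0.0280 and 0.0421 over 11 genes and none that stood out, the highest being PCDH11X with 184 and 223 counts (0.218 and 0.264), which shares near-identical sequence with a copy on the Y chromosome and is uncertain for that reason. Matrix, growth factor and proteoglycan genes had a median of 0.0299 and 0.0482 over 25 genes, with GPC6, a glypican, and GALNT13, a glycosyltransferase, standing out at 0.528 and 0.629, and 0.447 and 0.593. In the list of 4 CUB and sushi or LDL receptor repeat giants the median was 0.0205 and 0.0322. LRP1B, an LDL receptor relative, had 677 and 860 counts (0.356 and 0.453), and CSMD2, a CUB and sushi domain protein, had 6 and 5. The 103 genes in no list had a median of 0.0706 and 0.136, with 16 standing out. Neuronal and other markers were given above, and their part in these list values was not tested.

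**Figure D3:**
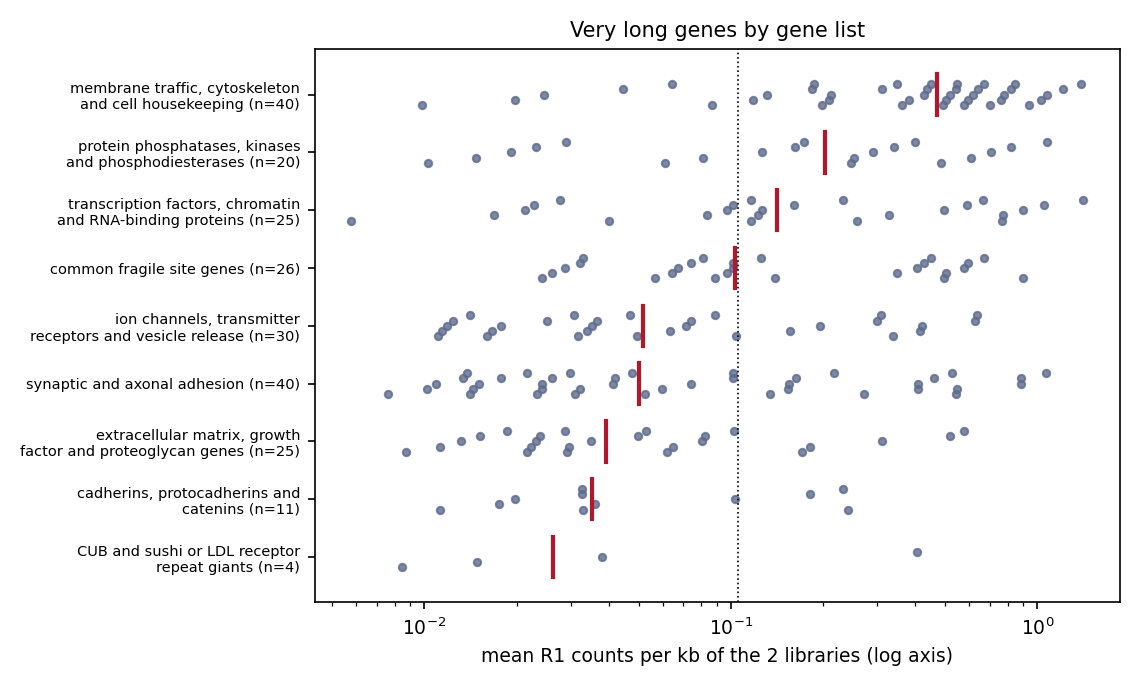
R1 counts per kilobase (log axis) of very long genes by list, one point per gene at the mean of both replicates, with a red bar for the list's median and a dotted line for the median of all very long genes; a gene in several lists is drawn in each. Membrane traffic genes had the highest median and the lists overlapped widely.

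Genes related by family in a broad sense, or by a shared complex (EXOC4 and EXOC6B), were wide apart in some pairs and near level in others. Of 14 pairs set side by side, 9 differed more than 3-fold in both R1 tables and 5 less. They were chosen after their values were seen and were not tested. ROBO1 had 0.722 and 1.04 R1 counts per kilobase, against 0.104 and 0.165 in ROBO2, its neighbour on chromosome 3, or 6.95-fold and 6.29-fold more. MAGI1 was 8.87-fold and 8.57-fold above MAGI2, which had 121 and 170 counts. GPC6 was 7.14-fold and 7.24-fold above its neighbour GPC5, which had 109 and 128 counts. In each of these 3 pairs the folds of the replicates were close, and R2 gave folds between 6.03 and 9.39. TENM3, with 249 and 358 counts, and TENM2, with 6 and 14, were the farther apart, at 61.7-fold and 38.0-fold, and PTPRG and PTPRT, with 9 and 24 counts in PTPRT, at 117-fold and 56.4-fold. Those folds rest on few counts in the lower gene. The 5 closer pairs were FOXP2 over FOXP1 at 1.15-fold and 1.17-fold, ADGRL2 over ADGRL3, adhesion receptors, at 1.23-fold and 1.34-fold, ANK2 over ANK3, ankyrins, at 1.35-fold and 1.46-fold, DOCK1 over DOCK3 at 1.71-fold and 1.57-fold, and EXOC4 over EXOC6B at 2.09-fold and 1.58-fold.

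Small features inside the genes took a minor part of the counts of most very long genes and most of the count of some. Features of other biotypes of at most 1000 bases, piRNAs left out, held 4.98% and 5.29% of the R1 counts of all very long genes, and 6.04% and 8.26% of the R2 counts. In the 59 genes that stood out they held 2.34% and 2.26%, against 8.72% and 9.11% in the other 245. Of the 304 genes, 222 had under 5% of their R1 count there, 56 had over 10% and 19 had over 30%. The shares of other protein-coding genes past these levels were not counted, so these numbers are not a trait particular to very long genes. None of the 59 was among the 19, the highest of the 59 being WDPCP and PTPRG at 21.9% each.

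PTPRD, a receptor tyrosine phosphatase of neurons (chr9:8314246-10612723), was the extreme case. Of its 442 and 892 R1 counts, 410 and 804 lay at RN7SL5P, a copy of 7SL, the RNA of the signal recognition particle, and of its 1169 and 2541 R2 counts, 1146 and 2471 did. Over all its short features the share was 92.7% of R1, and what remained was 0.0213 R1 counts per kilobase, against 0.290 with them. RELN, the reelin gene, had 29 and 35 counts, of which 25 and 23 lay at RN7SKP86, the 7SK copy. PHACTR1, a phosphatase and actin regulator, had 87 and 95 counts, of which 60 and 37 lay at RNU1-11P. NAALADL2, a peptidase-like gene, had 86 and 99 counts, of which 52 and 39 lay at RNU4-91P. ELMO1, a partner of DOCK1 in activating Rac, had 121 and 98 counts, of which 56 and 34 lay at the Y RNA copy. In these 4 genes the copy held more R1 counts in replicate 1 than in replicate 2, by 25 against 23 in RELN, unlike the 7SL copy in PTPRD, which held more in replicate 2.

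The mates differed at some of these copies. RN7SKP86 had 21 and 31 R2 counts, close to its R1 counts and with replicate 2 the higher library. In the R2 tables RNU1-11P had 6 and 16 counts and RNU4-91P had 8 and 4, well under their R1 counts, and the Y RNA copy in ELMO1 had 22 and 23. DIAPH2, a formin that nucleates actin and that stood out at 0.688 and 0.832 counts per kilobase, had 94 and 76 of its 633 and 766 R1 counts at its Y RNA copy, or 14.8% and 9.92%. The same copy had 0 of 480 and 0 of 589 R2 counts of DIAPH2, which allows a share of up to 0.625% and 0.509%. The reason for this difference between mates was not tested.

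Processed pseudogenes, copies of spliced mRNA set back into the genome, were the highest short feature in 10 of the 19 genes, with piRNAs included in this ranking. FAM19A2, a secreted chemokine-like protein of brain, had 119 and 234 counts, of which 93 and 181 lay at RPS3P6, a copy of a ribosomal protein gene. SEMA6D, a semaphorin, had 39 and 82 counts, with 29 and 66 at 1 processed pseudogene. LSAMP, an adhesion protein of the limbic system, had 111 and 161, with 52 and 70 at BZW1L1. RIMS2, a scaffold of vesicle release, had 122 and 173, with 67 and 108 at 1 pseudogene, and NEGR1, a neuronal adhesion protein, had 36 and 70, with 27 and 48. CSMD3 had only 12 and 24 R1 counts, but 85 and 160 R2 counts, of which 82 and 146 lay at 1 processed pseudogene. In these genes replicate 2 had the higher raw count at the pseudogene as it had in the gene.

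**Figure D4:**
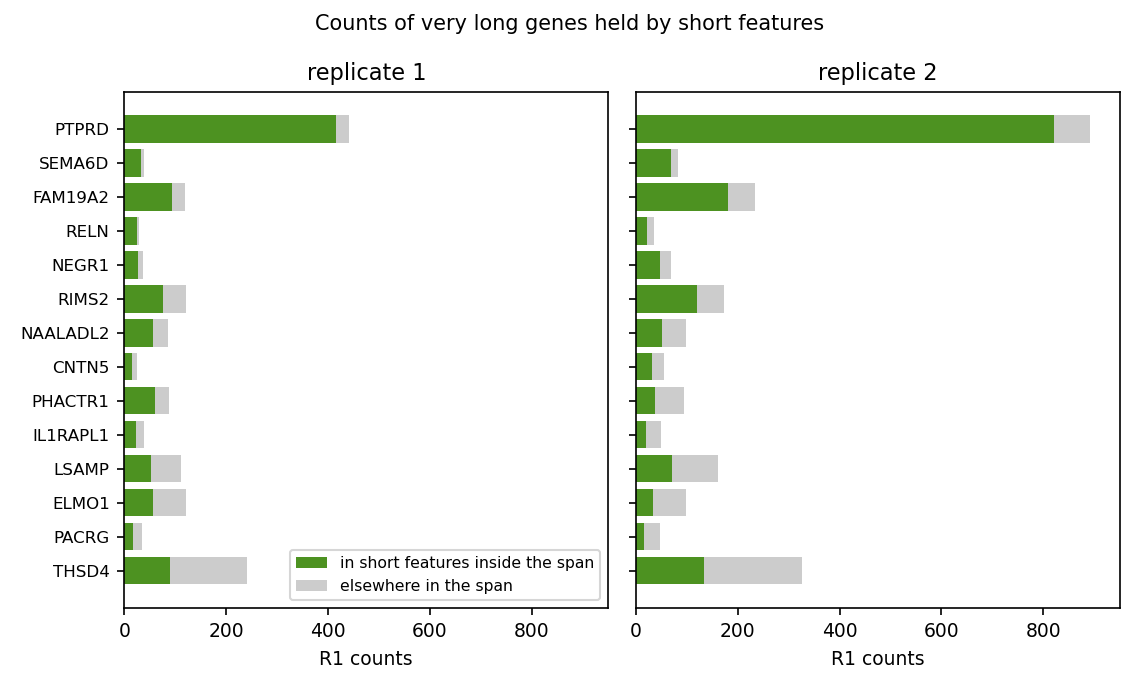
R1 counts of the 14 of the 19 genes above 30% that had at least 40 R1 counts over both replicates, 1 panel per replicate; bars start at 0, with the green part in short features inside the span and the grey part elsewhere in it. PTPRD had the most, 442 and 892 counts with 92.7% in short features, and in PHACTR1, NAALADL2 and ELMO1 the green part was longer in replicate 1.

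The 2 libraries ranked the very long genes alike. Spearman's rho of R1 counts per kilobase between replicates was 0.973 over the 304 genes, and between R1 and R2 of the same replicate it was 0.979 and 0.981. Replicate 2 had the higher raw count in 289 genes, replicate 1 in 12, and 3 were equal, with a median ratio of 1.47, although the total of replicate 2 was the smaller. Each gene's split between the replicates was then compared by a two-sided, exact binomial test with library sizes scaled by TMM (edgeR), with Benjamini-Hochberg adjustment over the 18723 features that had 10 or more counts on average. It compares 2 libraries and not conditions, and its p-values cover counting error only, with no allowance for spread between replicates. The TMM factors were 0.685 for replicate 1 and 1.46 for replicate 2. Of 283 very long genes tested, 13 were higher in replicate 2 (2.29% of all features tested were) and 33 were lower (6.52% of all features were). Thus 16.3% of very long genes departed, against 8.8% of all features, whose counts were not matched to theirs, and the median log2 ratio of replicate 2 over replicate 1 was -0.11 on this scale. Scaled by the library totals instead, the median was 0.98, so the direction of these departures depends on the scaling, as the counts in the closing section show.

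Among the genes lower in replicate 2, EXOC4 had a log2 ratio of -0.78 (adjusted p = 2.72e-31, exact binomial), and its raw count was lower too. Scaled by the library totals, the log2 ratio of EXOC4 was 0.31, so its direction also depended on the scaling. PRKG1, with 785 and 802 counts, had -0.62 (adjusted p = 4.23e-16, exact binomial). ELMO1, with 121 and 98, had -0.96 (adjusted p = 2.57e-05, exact binomial), with the Y RNA copy included in its count. SUGCT, an enzyme of glutarate metabolism, had 302 and 298 counts and -0.67 (adjusted p = 3.87e-07, exact binomial), and SORCS2, a sortilin-family receptor, had 98 and 89 and -0.79. Of the 33, 24 stood out in density, and none of the 13 higher genes did, against 59 of all 304. Both rules use the same R1 counts, standing out needs a high value in replicate 1, and the test calls smaller ratios at higher counts. These numbers are therefore no separate result about the genes. The genes higher in replicate 2 had fewer counts. CHRM3, a muscarinic acetylcholine receptor (chr1:239549865-240078752), had 15 and 95 R1 counts and 10 and 88 R2 counts, a log2 ratio of 1.97 (adjusted p = 2.97e-07, exact binomial). FAT3, an atypical cadherin, had 20 and 92 R1 counts and 7 and 68 R2 counts, 1.52 (adjusted p = 5.58e-05, exact binomial). NCKAP5 had 7 and 37 R1 counts (1.67), and CDH13, a GPI-anchored cadherin, and AGBL1, a deglutamylating enzyme, both had 7 and 34 (1.55).

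**Figure D5:**
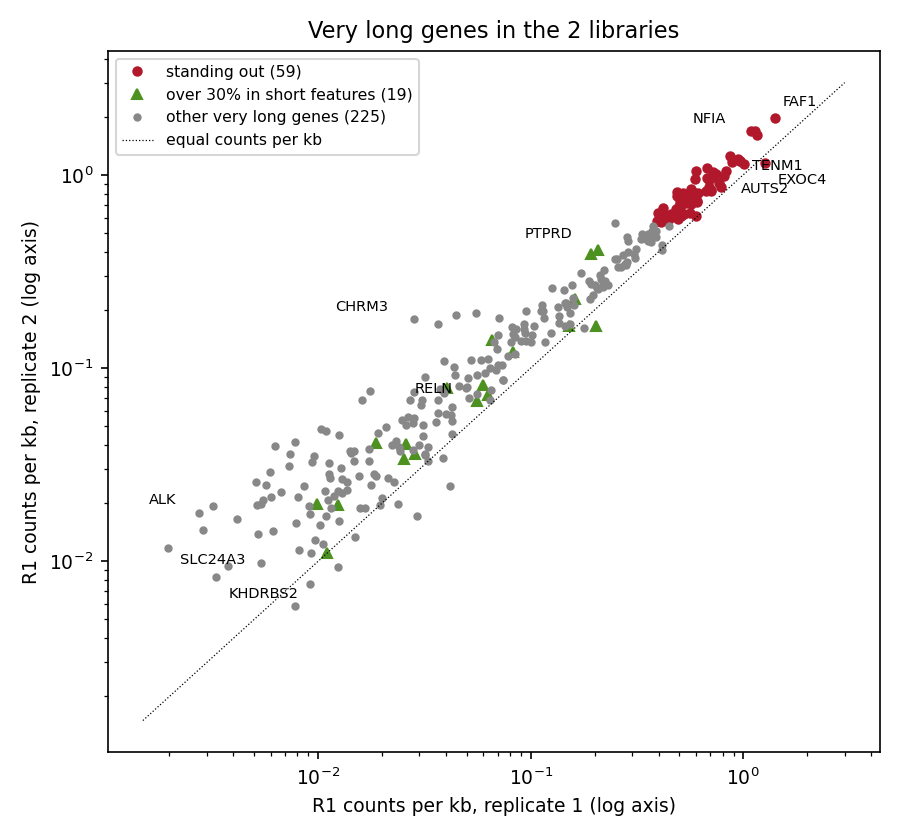
R1 counts per kilobase of 303 very long genes in replicate 2 against replicate 1 (log axes), coloured as the 59 that stood out, the 19 with over 30% of their count in short features and the other 225; the dotted line marks equal counts per kb. Spearman's rho over the 304 genes was 0.973, and most genes had the higher raw count in replicate 2.

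R2 recovered slightly less than R1 in most very long genes. Over the 186 genes with a mean R1 count of at least 50, the R2 count was a median of 85.2% of the R1 count, and 140 lay between 80% and 95%. This was far above the ratio of the library totals, since R2 totals were well under those of R1. In 6 genes R2 was the higher mate. PTPRD was at 278%, FAM19A2 at 124% and NEGR1 at 115%, each with over 30% of its R1 count in short features, and DMD was at 123% with 154 and 198 R2 counts against 111 and 176 R1 counts. In 15 genes R2 was under 70% of R1. MALRD1, a gene known in mouse for a role in bile acid control, was the lowest at 34.5%, with 23 and 18 R2 counts against 55 and 64 R1 counts. PHACTR1 was at 49.5%, with its U1 copy in R1, and TRAPPC9, a subunit of a vesicle tethering complex, was at 61.8%, with 220 and 271 R2 counts against 306 and 488 R1 counts. TRAPPC9 was the 1 standing-out gene that no longer stood out in the R2 tables, where 67 genes did.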

How the data were processed

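RNA bound to hTrmt13 was sequenced from 1 group of 2 replicates. The authors deposited raw whole-number counts for each feature, with separate tables for the read mates of both replicates. Bowtie2 2.3.5.1, bedtools 2.24.0 and the hg19 (GRCh37) build were named, per the submitters' processing notes. How reads were aligned, how multiple matches were placed and whether strand was used is not given here. Positions are those of the tables. No hg19 annotation was used, so GENCODE release 29 (GRCh38) gave exon lengths and small RNA sequences by gene ID only.

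The members, gene lists, rules and settings were chosen with earlier results of these data known. Counts were divided by the span in kilobases (end minus start). Standing out meant at least 4 times the median of all members in both R1 tables. Short features were features of other biotypes of at most 1000 bases inside the span, piRNAs left out, with overlapping ones counted once by the highest. The split between replicates was tested with an exact two-sided binomial test against sizes scaled by edgeR 4.0.16 (TMM, R 4.3.3), adjusted by Benjamini-Hochberg at 0.05, with log2 ratios from counts plus 0.5. DESeq2 1.42.0 size factors were an alternative. Other steps used scipy 1.17.1, pandas 2.3.3 and numpy 2.4.6 under Python 3.11.15, and figures matplotlib 3.10.9. The single group allowed no test between conditions. The total of the R1 counts was 27907799 and 20590398, and the precision of low counts is given by exact Poisson intervals.

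Genes were named by rank: the 15 highest per kilobase, the 10 highest by R1 count and by R2 density, the 5 highest after short features were taken off, the 5 longest, the 5 lowest, the 5 nearest the span minimum on each side, the 5 most different between replicates in each direction, the 5 highest and lowest R2 to R1 ratios, the 4 highest and the lowest of each list, and genes with over 30% of their count in short features. The text gives examples from these. PARD3, DIAPH2, FOXP1, WDPCP, SDK1, ADGRL2, RORA, FARS2, EPHA6, TENM3, ROBO2, MAGI2, GPC5, PTPRT, TENM2, RAD51B, GPHN, UTRN, CDKAL1, GMDS, CREB5, DENND1A, ERC1, EXOC6B, ADGRL3, ANK2, ANK3, DOCK3 and SUPT3H were chosen after their values were seen. A Y-linked member was counted and its level is not printed. A few items withheld for evaluation are not reported here.

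Alternatives were the R2 table, both mates summed, each replicate left out, short features or overlapping protein-coding genes taken off or left out, scaling by the protein-coding total, a mean count of at least 10, a span of 1000000 or more, 3 or 10 times the median, other denominators and short-feature limits, and other library sizes and count minimums in the binomial test.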

Additional observations from a re-analysis of the deposited data

How the results depend on the processing

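No paired analysis was possible because the series held a single group here. Of 127 values of the comparisons under alternatives, 84 moved by less than the spread between replicates (counts of genes by less than 1.5 times) and 43 moved by more. Those 43 are given here. Medians, ratios and shares with 1 replicate left out stay within this spread by arithmetic, so those among the 84 were no check. The main values were a median of 0.105 counts per kilobase, a ratio to other genes of 0.0989, 59 genes standing out, 0.241% of the library, 5.13% in short features, and list medians of 0.0501 (synaptic adhesion), 0.0517 (channels), 0.0351 (cadherins), 0.0263 (CUB and sushi), 0.203 (kinases and phosphatases), 0.103 (fragile sites), 0.141 (transcription), 0.470 (traffic) and 0.0390 (matrix). From R2 the share of the library was 0.501%, the short share 7.15%, CUB and sushi 0.0627 and matrix 0.0255. With both mates summed, the construction raised each level: the median was 0.193, the short share 6.07%, and the lists 0.0924 (synaptic adhesion), 0.0937 (channels), 0.0605 (cadherins), 0.0891 (CUB and sushi), 0.385 (kinases and phosphatases), 0.184 (fragile sites), 0.255 (transcription), 0.862 (traffic) and 0.0607 (matrix). Scaled by the protein-coding total, another unit, the median was 0.0557 and the lists 0.0267 (synaptic adhesion), 0.0190 (cadherins), 0.0142 (CUB and sushi), 0.111 (kinases and phosphatases), 0.0559 (fragile sites), 0.0743 (transcription), 0.256 (traffic) and 0.0209 (matrix). With short features taken off the ratio was 0.0849. Among genes averaging 10 or more counts the ratio was 0.0577, CUB and sushi 0.0379 and matrix 0.0529. With spans of 1000000 or more the median was 0.0575, the ratio 0.0540, the genes standing out 10 (of 66, at 4 times their own lower median, while 5 passed the level set by all 304) and the share 0.0537%. At 10 times the median 4 genes stood out. The share of protein-coding counts was 3.04%. The short share was 6.36% with piRNAs counted, 2.40% for features of at most 300 bases, and 4.10% without PTPRD. CUB and sushi was 0.0148 over genes in 1 list only. The settings without PTPRD and with genes in 1 list only, and the one with overlapping protein-coding genes taken off, were chosen after seeing the data. In the binomial test, 13 genes were higher and 33 lower in replicate 2. Against library totals 257 were higher and 0 lower (2 lay below expectation, 0 of them at an unadjusted p under 0.05). From R2 6 were higher and 31 lower, and over all features with a count 8 were higher and 20 lower. DESeq2 size factors gave 13 and 34. The share of all features called was counted for the main setting only (2.29% higher and 6.52% lower). The counts under alternatives are therefore no result particular to very long genes. The cause of these shifts was not tested beyond the changes of unit, sum or genes named. The genes standing out numbered 60 without replicate 1 and 79 without replicate 2. All 59 were in both sets by construction, since the rule asks for both replicates. The genes standing out numbered 67 from R2 (58 shared, TRAPPC9 lost), 73 with short features taken off (59 shared) and 71 with overlapping protein-coding genes taken off (58 shared, TENM1 lost). What was taken off was the whole count of each overlapping gene, including any part outside the very long gene. Of 516 values of 86 named genes, 319 moved by less than the spread between replicates. Those with 1 replicate left out again did so by arithmetic.

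Depth limited the sparse genes: 50 and 12 of 304 had fewer than 10 counts, and folds against them are loose. With 2 libraries, no control library, unknown strand use and unknown handling of multiple matches, the values describe recovered reads per span, and reads of introns, exons and overlapping genes cannot be told apart.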
